A study of Mus musculus with 12 samples.

Results

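The Rab genes encode a family of small GTPases that direct traffic between membrane compartments, and 56 of them were measured in resting B (RB) cells. They were chosen by name, as every gene on the array whose symbol is Rab, a number and an optional final letter, and they were covered by 100 of the 61307 probes that were not control probes. Each gene was read by 1 probe, the brightest over all arrays (21 genes had 1 probe, 28 had 2, 5 had 3 and 2 had 4). The RB cells came from spleens of female BALB/c mice aged 6 weeks and had been isolated by removing CD43+ cells. Total RNA was taken after 4 h in RPMI medium with serum and hybridised to 12 one-colour (Cy3) arrays, 2 for each of 6 conditions. The conditions were unstimulated cells and cells given Pam2CSK4 (a lipopeptide that engages TLR2), anti-CD86, both of these (TLR2.CD86), anti-CD40, or Pam2CSK4 on top of anti-CD40 (anti-CD40+Pam2CSK4). No condition carried a genetic change. Nothing in the labels says whether the 2 arrays of a condition came from separate mice or cultures, so p-values measure the spread between arrays, which may be technical. A level is given throughout as the log2 intensity of a probe minus the 75th percentile of its array, and levels of different probes cannot be set against each other. Intensities on such arrays are relative, and fewer cells of a type and less RNA per cell cannot be told apart.

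A Rab protein switches between a GTP-bound form that sits on a membrane and recruits effectors and a GDP-bound form that is extracted from it. Exchange factors switch it on, GTPase-activating proteins switch it off, and prenylation with an escort protein anchors it. Rab5 proteins govern fusion at the early endosome, Rab4 and Rab11 the fast and slow return of receptors to the surface, Rab7 the passage to late endosomes and lysosomes, Rab1 and Rab6 the traffic of the Golgi, and Rab3 and Rab27 the release of granules. In B cells, internalised antigen and receptors pass through these compartments on their way to loading of MHC class II molecules.

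Rab5a, Rab5b and Rab5c come from separate genes, and the 3 probes that read them have different letters. Their first 30 of 60 bases are shown in lower case because these probes behaved differently from each other. The files give no genome position for them.

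Rab5a: tcccctatgaaaggaaggggctttgctgtt

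Rab5b: caggctgcaatcgtggtctatgatattact

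Rab5c: cctctggctctgagccctgttctgaccaaa

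The promoters of the same genes, from RefSeq (build GRCm38.p6), are shown because the 3 genes moved apart. Each run covers 250 bases before the start of the gene and 20 after it, on the strand of the gene. Capitals mark the E-box CACGTG and, where it stands inside one, the longer palindrome GTCACGTGAC, both of which read the same on either strand. The Rab5a window is at chr17:53478984-53479253 (+ strand), that of Rab5b at chr10:128696249-128696518 (- strand) and that of Rab5c at chr11:100738196-100738465 (- strand).

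Rab5a promoter: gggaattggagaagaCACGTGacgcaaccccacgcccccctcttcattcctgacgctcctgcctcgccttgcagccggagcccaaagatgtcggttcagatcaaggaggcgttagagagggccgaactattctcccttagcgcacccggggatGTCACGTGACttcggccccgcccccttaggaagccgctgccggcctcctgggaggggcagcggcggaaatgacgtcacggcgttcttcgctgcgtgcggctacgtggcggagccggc

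Rab5b promoter: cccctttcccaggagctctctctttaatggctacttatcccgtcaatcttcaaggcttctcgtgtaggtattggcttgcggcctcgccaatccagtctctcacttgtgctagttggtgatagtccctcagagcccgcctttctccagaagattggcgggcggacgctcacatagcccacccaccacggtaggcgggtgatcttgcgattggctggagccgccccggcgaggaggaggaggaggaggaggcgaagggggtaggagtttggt

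Rab5c promoter: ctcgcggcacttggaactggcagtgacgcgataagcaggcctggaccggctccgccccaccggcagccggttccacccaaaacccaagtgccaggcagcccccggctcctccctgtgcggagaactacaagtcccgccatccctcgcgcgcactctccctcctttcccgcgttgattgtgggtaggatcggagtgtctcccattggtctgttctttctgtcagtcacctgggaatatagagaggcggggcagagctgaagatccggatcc

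The Rab5a window held 2 copies of CACGTG, and neither the Rab5b nor the Rab5c window held it. Over windows of 300 bases, CACGTG stood in 7.15% of all 32851 promoters of the table, and in 6 of the 45 Rab genes that had an entry (Rab5a, Rab20, Rab21, Rab23, Rab24 and Rab27a). The palindrome stood in 0.326% of all promoters and in those of Rab5a, Rab21 and Rab24. The percentages count promoter entries, whereas a Rab gene was counted if any entry under its symbol matched. These are matches of letters and say nothing of which factors act there.

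The arrays lay on 2 slides, and this touches every result below. Slide 1 held 8 arrays, both unstimulated, both anti-CD40+Pam2CSK4 and replicate 1 of the other conditions, and slide 2 held replicate 2 of Pam2CSK4, anti-CD86, TLR2.CD86 and anti-CD40. Between 46.6% and 60.6% of the spots of an array were well above background. The highest share was that of anti-CD40 replicate 2, whose median intensity was 51.2, against 17.3 to 33.5 on the other arrays. Calls lost without that array are named below. The median Rab level was lower on slide 2 than on slide 1 in each of those 4 conditions (by 0.22, 0.16, 0.29 and 0.21 on the log2 scale), whereas the median difference between the 2 unstimulated arrays was 0.0047 and between the 2 anti-CD40+Pam2CSK4 arrays -0.013. A second fit, with slide added as a blocking term (the slide-blocked fit), was therefore run as well, and the genes that passed only there are named with the counts below. All 8 B cell markers (among them Cd79a and Pax5) were well above background on all 12 arrays, with a mean level from 3.06 to 3.68. Markers of other cells were also present, 7 of 8 T cell, 5 of 6 NK cell, 7 of 8 myeloid and 4 of 5 red cell markers being well above background on all arrays. Their mean levels ranged from -0.36 to 0.16, from -0.89 to -0.31, from 0.81 to 1.53 and from 0.49 to 1.42, and the NK cell mean was -0.38 and -0.31 on the unstimulated arrays and -0.89 to -0.52 on the 10 others. The myeloid mean was 1.53 on both unstimulated arrays, 1.23 and 1.51 with Pam2CSK4 and 0.81 to 1.13 on the 8 other arrays. The mean of 4 liver markers lay between -1.79 and -1.19 on 10 arrays and at -4.07 and -3.74 on the 2 anti-CD40+Pam2CSK4 arrays (Ttr was above background on none). The part of these cells in the results was not tested.

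Across the conditions, the Rab genes were mostly lower after stimulation in the fit without the slide as a block. The number that passed the test grew from Pam2CSK4 to the anti-CD40 conditions. Of the 56 genes, 42 were well above background on all arrays by their brightest probe, 10 on some and 4 on none, and 44 were bright enough in at least 1 condition to be tested among 31599 probes. With limma and an adjusted p under 0.05, no Rab gene passed for Pam2CSK4 against unstimulated cells, where 0.136% of all probes did (13 of the 44 had an unadjusted p under 0.05). For unadjusted p the share of all probes is not given, here or below. Such counts are therefore not read against a background. For anti-CD86 2 passed, both lower (2.14% of all probes in either direction). For TLR2.CD86 8 passed (10.6% of all probes), 7 lower and 1 higher, against 7.23% and 3.39% of all probes. For anti-CD40 14 passed (16.7%), 12 lower and 2 higher, against 10.6% and 6.15%. For anti-CD40+Pam2CSK4 14 passed as well (18.2%), again 12 lower and 2 higher, against 9.65% and 8.52%. The last 3 counts are 18.2%, 31.8% and 31.8% of the Rab genes tested. Taking only the brightest probe of each name in the files, 10.8%, 16.9% and 17.8% passed in these 3 comparisons, so the choice of probe moved the background little. In the test of a difference among all 6 conditions 13 Rab genes passed (20.1% of all probes).

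The median log2 fold change over the 44 genes was -0.26 for Pam2CSK4, -0.26 for anti-CD86, -0.32 for TLR2.CD86, -0.36 for anti-CD40 and -0.22 for anti-CD40+Pam2CSK4. Over all probes tested the medians were -0.07, -0.05, -0.03, -0.01 and 0.01. Between 35 and 40 of the 44 genes had a negative fold change in each comparison. Every stimulated condition except anti-CD40+Pam2CSK4 had an array on the slide with the lower Rab levels, and the unstimulated cells had none. The Rab medians and the numbers of negative genes for those conditions therefore include part of the slide difference. They are not given for the slide-blocked fit, so the size of that part was not tested. Only anti-CD40+Pam2CSK4 was compared with unstimulated cells within the same slide. Centring each array on its median in place of the 75th percentile moved all log2 fold changes by -0.19, -0.14, -0.29, -0.57 and -0.11 in the same order, so the directions below are relative to the 75th percentile. The Rab medians were then -0.45, -0.40, -0.61, -0.93 and -0.33, and those of all probes -0.26, -0.19, -0.32, -0.58 and -0.10. With this centring 0, 0, 0, 3 and 1 Rab genes passed.

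**Figure D1:**
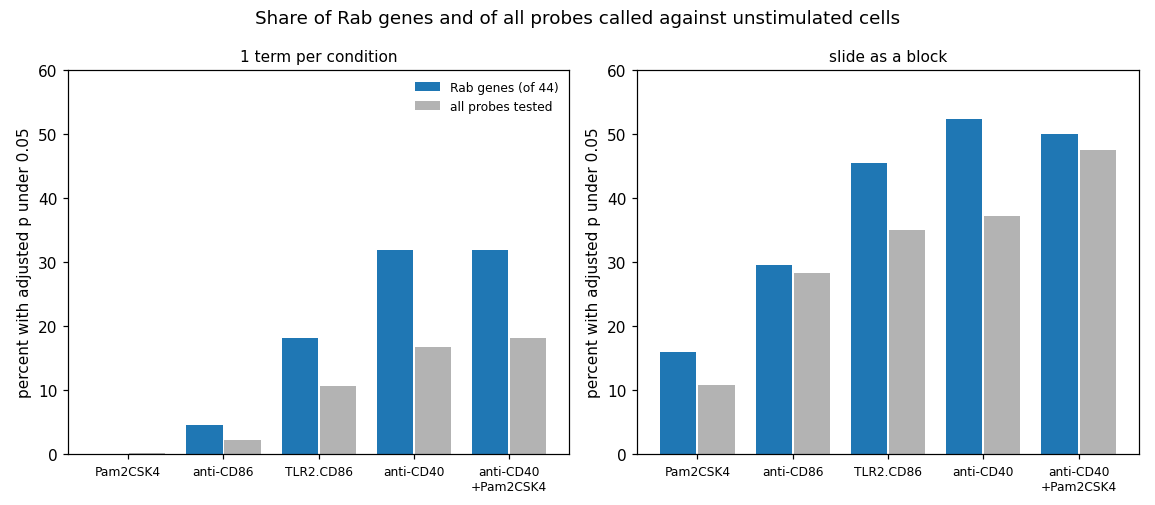
Percent of the 44 Rab genes tested (blue) and of all 31599 probes tested (grey) with an adjusted p under 0.05 against unstimulated cells, for 5 conditions on the horizontal axis, with 1 term per condition (left) and in the slide-blocked fit (right). On the left the Rab share reached 31.8% for both anti-CD40 conditions; on the right all shares were higher, and that of all probes reached 47.4% for anti-CD40+Pam2CSK4.

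In the slide-blocked fit, 7, 13, 20, 23 and 22 Rab genes passed in the 5 comparisons in the same order, against 10.8%, 28.3%, 34.9%, 37.1% and 47.4% of all probes. All genes called without the block passed with it. The further genes were Rab1b, Rab4a, Rab5c, Rab6, Rab20, Rab28 and Rab30 for Pam2CSK4. For anti-CD86 they were Rab1b, Rab5b, Rab8b, Rab9, Rab14, Rab19, Rab25, Rab28, Rab30, Rab37 and Rab43. TLR2.CD86 added Rab1, Rab5a, Rab5b, Rab6, Rab7, Rab8b, Rab11a, Rab18, Rab19, Rab20, Rab22a and Rab43. Anti-CD40 added Rab1, Rab2a, Rab4b, Rab5b, Rab5c, Rab9, Rab20, Rab24 and Rab43, and anti-CD40+Pam2CSK4 added Rab1, Rab3d, Rab4b, Rab8b, Rab12, Rab19, Rab20 and Rab43. Of these further genes, Rab5c and Rab20 were higher for Pam2CSK4, and Rab5b, Rab14, Rab25 and Rab43 for anti-CD86. Rab5b, Rab20 and Rab43 were higher for TLR2.CD86, Rab5b and Rab20 for anti-CD40, and Rab8b, Rab12 and Rab20 for anti-CD40+Pam2CSK4. The others were lower. By the brightest probe of each name in the files, 6.4%, 16.2%, 20.6%, 21.6% and 23.5% passed as lower in this fit, in the same order. The plot of shares shows that the Rab shares for anti-CD86 and anti-CD40+Pam2CSK4 then stood close to those of all probes.

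Among the early endosomal genes, Rab5c was the one that moved most, and it moved in opposite directions in the 2 conditions that combined TLR2 with a second signal. Its levels were 3.46 and 3.47 in unstimulated cells, 4.48 and 4.25 with Pam2CSK4, 3.31 and 3.01 with anti-CD86, and 2.69 and 2.44 with TLR2.CD86. With anti-CD40 they were 3.17 and 2.76, and with anti-CD40+Pam2CSK4 5.60 and 5.59. The 2 anti-CD40+Pam2CSK4 arrays stood above all others and the 2 TLR2.CD86 arrays below all others. Rab5c was lower in TLR2.CD86 than in unstimulated cells by -0.90 on the log2 scale (SE 0.18, adjusted p = 0.0237; -0.75 in the slide-blocked fit and -0.78 on slide 1 alone). It was higher in anti-CD40+Pam2CSK4 by 2.13 (SE 0.18, adjusted p = 0.00032), or 4.37-fold, all 4 arrays lying on slide 1. The value for Pam2CSK4 alone was 0.89 (adjusted p = 0.111), and it passed in the slide-blocked fit (1.04, adjusted p = 0.00199). Rab5c had 1 probe, so no other probe bears on these values.

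Set against single signals, Rab5c was the only Rab gene of 44 to differ between TLR2.CD86 and Pam2CSK4 (0.0633% of all probes passed). It was lower in TLR2.CD86, by -1.79 (adjusted p = 0.0195), and the difference was -1.79 on slide 1 and -1.80 on slide 2. In the slide-blocked fit 10 Rab genes passed in this comparison. The share of all probes that passed in it there is not given, and it cannot be taken from the 0.0633%. No Rab gene passed between TLR2.CD86 and anti-CD86 by limma (4 had an unadjusted p under 0.05, and 0.225% of all probes passed). Rab5c had -0.59 there (adjusted p = 0.376), with -0.62 and -0.57 within the slides, and passed in the slide-blocked fit (adjusted p = 0.00607). Between anti-CD40+Pam2CSK4 and anti-CD40, 2 Rab genes passed (2.9% of all probes). One was Rab5c, higher by 2.63 (adjusted p = 0.000163), or 6.18-fold, and the other Rab27a. Rab5c was also higher in anti-CD40+Pam2CSK4 than in Pam2CSK4, by 1.23 (adjusted p = 0.00549).

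The interaction asks whether both signals together differed from the sum of their separate log2 effects. For CD40 and TLR2, Rab5c was the single Rab gene that passed (1.15% of all probes), with 1.73 above the sum (SE 0.25, adjusted p = 0.0191). For CD86 and TLR2 no Rab gene passed by limma (0.019% of all probes, and 3 Rab genes had an unadjusted p under 0.05). The Rab5c value there was -1.49 (SE 0.25, adjusted p = 0.281), and in the slide-blocked fit it passed at -1.64 (adjusted p = 0.00408). Whether the CD40 and CD86 interactions differ was not tested.

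The calls of Rab5c for TLR2.CD86 rest on each array. Without either TLR2.CD86 array or either unstimulated array, the adjusted p against unstimulated cells lay between 0.0507 and 0.146, with log2 fold changes from -1.02 to -0.78. Against Pam2CSK4 it lay between 0.0545 and 0.118, leaving out any of the 4 arrays compared. The call of the CD40 interaction was lost without either anti-CD40+Pam2CSK4 array, either unstimulated array or Pam2CSK4 replicate 2 (1.53 to 1.94, adjusted p up to 0.1 over the arrays left out). In contrast, the 3 calls of anti-CD40+Pam2CSK4 against unstimulated, anti-CD40 and Pam2CSK4 cells held without any of the arrays they compare, with adjusted p up to 0.00589, 0.00323 and 0.0488.

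**Figure D2:**
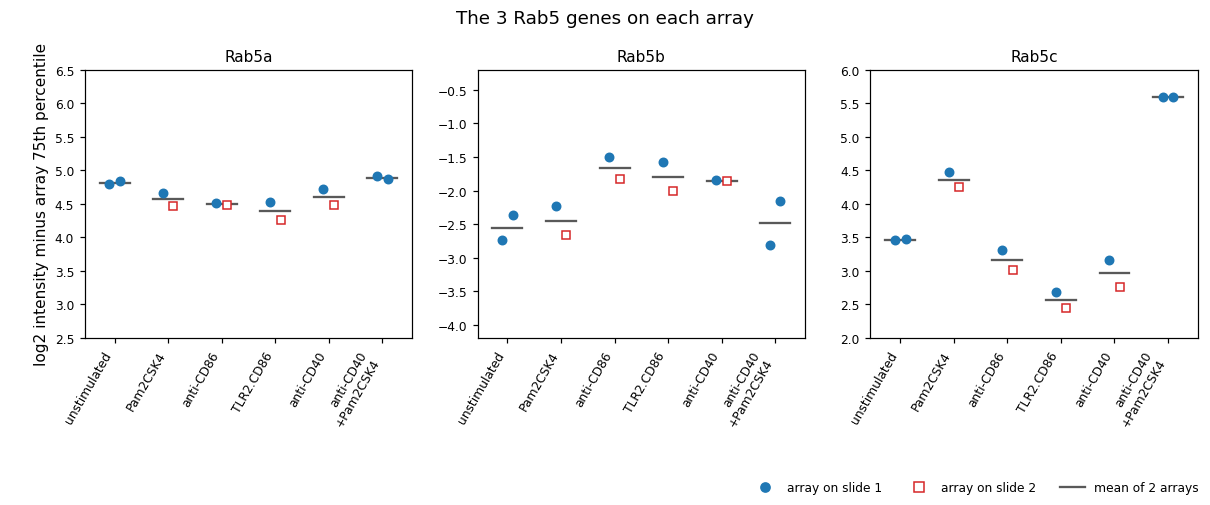
Levels of Rab5a, Rab5b and Rab5c (vertical axis, log2 intensity relative to the 75th percentile of each array; each panel spans 4 units) in the 6 conditions on the horizontal axis. Each point is an array, filled on slide 1 and open on slide 2, and the bar is the mean of 2 arrays; Rab5c rises to 5.60 and 5.59 with anti-CD40+Pam2CSK4 and is lowest with TLR2.CD86, whereas Rab5a stays between 4.26 and 4.91.

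Rab5b behaved otherwise. Its brightest probe gave -2.74 and -2.37 in unstimulated cells, -2.23 and -2.66 with Pam2CSK4, -1.50 and -1.83 with anti-CD86, and -1.57 and -2.01 with TLR2.CD86. The anti-CD40 arrays gave -1.85 and -1.86 and the anti-CD40+Pam2CSK4 arrays -2.81 and -2.16. Both arrays of anti-CD86, TLR2.CD86 and anti-CD40 stood above both unstimulated arrays, and the arrays of the other 2 conditions overlapped them. No comparison passed (0.89, SE 0.27, adjusted p = 0.111 with anti-CD86, 0.76 at 0.104 with TLR2.CD86 and 0.70 at 0.112 with anti-CD40). In the slide-blocked fit all 3 passed, at 1.04, 0.91 and 0.85 (adjusted p = 0.0235, 0.0299 and 0.0354). That probe lists 4 accessions, and the second Rab5b probe was well above background on 6 of 12 arrays and passed in none of the comparisons with unstimulated cells.

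Rab5a changed least. Its levels were 4.79 and 4.84 in unstimulated cells, 4.52 and 4.26 with TLR2.CD86 and 4.91 and 4.87 with anti-CD40+Pam2CSK4, and on the other 6 arrays they lay between 4.47 and 4.72. No comparison of its brightest probe passed, the value nearest being TLR2.CD86 (-0.42, SE 0.14, adjusted p = 0.0814; -0.33, adjusted p = 0.0135 in the slide-blocked fit). Its other probe was lower in TLR2.CD86 by -0.56 (adjusted p = 0.0247). For anti-CD40+Pam2CSK4 the 2 probes had opposite signs, 0.07 and -0.33, neither past the threshold.

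Rab31 and Rab22a, close relatives of Rab5 that act between endosomes and the trans-Golgi, fell with anti-CD40. The levels of Rab31 were 0.17 and 0.19 in unstimulated cells and -0.68 and -1.02 with anti-CD40. With anti-CD40+Pam2CSK4 they were -0.90 and -0.99, and on the 6 arrays of the other conditions they lay between -0.32 and 0.23. The log2 fold changes were -1.03 (SE 0.21, adjusted p = 0.0172) for anti-CD40 and -1.12 (adjusted p = 0.00867) for anti-CD40+Pam2CSK4. Rab22a fell by 0.46 (adjusted p = 0.0404) and 0.43 (adjusted p = 0.0465). Its 3 probes disagreed for anti-CD40+Pam2CSK4, the others giving -0.49 (adjusted p = 0.0199) and 0.19 (adjusted p = 0.463). For anti-CD40 the call of Rab22a was lost with the median over its probes. Rab20, found on phagosomes and early endosomes, had 0.25 to 0.47 in the 4 conditions other than anti-CD86 and passed in those 4 only in the slide-blocked fit. Rab21, which accompanies integrins into endosomes, had values between -0.43 and 0.14 and passed in none of the 5 comparisons. Of the 8 early endosomal genes 7 were tested. None passed with Pam2CSK4 or anti-CD86, 1 with TLR2.CD86 (Rab5c, lower), 2 with anti-CD40 (both lower) and 3 with anti-CD40+Pam2CSK4 (2 lower, Rab5c higher). Of all probes 10.6%, 16.7% and 18.2% passed in the last 3, and with 7 genes the counts are too small to be read against them.

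In the recycling group, Rab4a was the gene lower in the most conditions. Its levels were 2.28 and 2.33 in unstimulated cells, 2.03 and 1.72 with Pam2CSK4, 1.55 and 1.38 with anti-CD86, and 1.46 and 1.33 with TLR2.CD86. With anti-CD40 they were 1.65 and 1.44, and with anti-CD40+Pam2CSK4 1.46 and 1.54. All 10 stimulated arrays stood below both unstimulated arrays. The fall was -0.83 with anti-CD86 (SE 0.14, adjusted p = 0.0373), -0.91 with TLR2.CD86 (adjusted p = 0.0145), -0.76 with anti-CD40 (adjusted p = 0.0141) and -0.80 with anti-CD40+Pam2CSK4 (adjusted p = 0.0075). For Pam2CSK4 it passed only in the slide-blocked fit. Its second probe passed for both anti-CD40 conditions, at -0.52 (adjusted p = 0.0456) and -0.55 (adjusted p = 0.0362). Rab11a, of the recycling endosome, went from 3.85 and 3.77 to 3.40 and 3.20 with anti-CD40 (-0.51, adjusted p = 0.0274) and to 3.14 and 3.23 with anti-CD40+Pam2CSK4 (-0.62, adjusted p = 0.0101). Its 2 other probes were lower in both but did not pass. Rab25, an epithelial relative of Rab11, was dim and higher in TLR2.CD86, at -1.29 and -1.78 against -2.34 and -2.27 (0.77, SE 0.17, adjusted p = 0.0334). Of 12 recycling genes 11 were tested, and 1, 2, 2 and 2 passed for anti-CD86, TLR2.CD86, anti-CD40 and anti-CD40+Pam2CSK4, where 2.14%, 10.6%, 16.7% and 18.2% of all probes did, so these counts are near the background.

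The probes of Rab8b, which carries vesicles to the plasma membrane, did not behave alike. Its brightest probe gave -0.52 with anti-CD86 (adjusted p = 0.0858), -0.35 with TLR2.CD86 (adjusted p = 0.133) and 0.23 with anti-CD40+Pam2CSK4 (adjusted p = 0.289). Another of its 3 probes was lower in anti-CD86, by -0.81 (adjusted p = 0.027), and in TLR2.CD86, by -0.75 (adjusted p = 0.0151). The third was higher in anti-CD40+Pam2CSK4, by 0.59 (adjusted p = 0.0442). Rab14, of the trans-Golgi and endosomes, varied little, between 4.46 and 5.12 over 12 arrays, and passed in no comparison with unstimulated cells except anti-CD86 in the slide-blocked fit (0.20, adjusted p = 0.0451). Rab4b, the paralogue of Rab4a, had -0.69 for anti-CD40+Pam2CSK4 (adjusted p = 0.0546) and passed in the slide-blocked fit.

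In the group of late endosomes, lysosomes and autophagy, 6 of 8 genes were tested, and 1 of them, Rab32, passed in each comparison but that of Pam2CSK4. Of all probes 2.14%, 10.6%, 16.7% and 18.2% passed in those comparisons, and with 6 genes the counts are too small to be read against them. Rab32 serves lysosome-related organelles. Its mean level was 1.16 (SD 0.08, n = 2) in unstimulated cells, and its arrays gave 0.40 and 0.36 with anti-CD86, 0.49 and 0.29 with TLR2.CD86 and 0.43 and 0.23 with anti-CD40. They were 0.67 and 0.57 with anti-CD40+Pam2CSK4, and the Pam2CSK4 arrays, at 0.91 and 0.78, stood between these and the unstimulated ones. The fold changes were -0.78 (SE 0.13, adjusted p = 0.0337), -0.77 (adjusted p = 0.0157), -0.83 (adjusted p = 0.00709) and -0.54 (adjusted p = 0.0225) in that order. Rab7, the main Rab of late endosomes, stayed between 3.95 and 4.32 on all arrays, and its fold changes of -0.28 to -0.03 did not pass in any of the 5 comparisons, although that of TLR2.CD86 passed in the slide-blocked fit (-0.25, adjusted p = 0.0369). Rab12, which routes the transferrin receptor to lysosomes, was higher in anti-CD40+Pam2CSK4 than in Pam2CSK4 by 0.99 (adjusted p = 0.0372). Its levels were 2.70 and 2.76 against 1.97 and 1.51, and on slide 1 alone the difference was 0.76.

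Of the 15 genes of the ER and Golgi 10 were tested, and none passed for Pam2CSK4 or anti-CD86, 2 for TLR2.CD86 (10.6% of all probes), 5 for anti-CD40 (16.7%) and 5 for anti-CD40+Pam2CSK4 (18.2%). Rab30, a Golgi Rab, went from 2.22 and 2.29 in unstimulated cells to 1.54 and 1.29 with TLR2.CD86, 1.01 and 0.72 with anti-CD40 and 0.81 on both anti-CD40+Pam2CSK4 arrays. The Pam2CSK4 and anti-CD86 arrays lay at or below 1.71. All 10 stimulated arrays were thus below both unstimulated arrays. The fold changes that passed were -0.84 (adjusted p = 0.017), -1.39 (SE 0.14, adjusted p = 0.0018) and -1.44 (adjusted p = 0.000697).

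Rab1b, which acts between the ER and the Golgi, was at 3.31 and 3.32 in unstimulated cells. It was at 2.59 and 2.72 with TLR2.CD86 (-0.66, adjusted p = 0.0151), 2.66 and 2.70 with anti-CD40 (-0.63, adjusted p = 0.00957) and 2.53 and 2.51 with anti-CD40+Pam2CSK4 (-0.79, SE 0.11, adjusted p = 0.00233). Its second probe had -0.25, -0.43 and -0.45, and did not pass. Its paralogue Rab1 (Rab1a in RefSeq) had -0.50, -0.41 and -0.23, none past the threshold, and passed in all 3 in the slide-blocked fit (-0.40, -0.31 and -0.23, adjusted p = 0.0119, 0.0262 and 0.0494). Its dimmer probe was lower in anti-CD40+Pam2CSK4 by -0.67 (adjusted p = 0.0169). Rab6 (Rab6a in RefSeq), of retrograde Golgi traffic, fell from 4.15 and 4.16 to 3.52 and 3.38 with anti-CD40 (-0.71, adjusted p = 0.00803) and to 3.28 and 3.17 with anti-CD40+Pam2CSK4 (-0.93, adjusted p = 0.00158). Its other probe had -0.42 and -0.45 there, neither past the threshold, and was lower in TLR2.CD86 by -0.55 (adjusted p = 0.0474). Rab19 fell with anti-CD40 (-0.75, adjusted p = 0.0381), and Rab2b with anti-CD40+Pam2CSK4 (-0.56, adjusted p = 0.0393).

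Rab34, a Golgi Rab that also positions lysosomes, was the gene of this group that rose. It was at -1.09 and -1.14 in unstimulated cells, -0.42 and -0.59 with anti-CD40 (0.61, SE 0.12, adjusted p = 0.018) and -0.18 and -0.11 with anti-CD40+Pam2CSK4 (0.97, adjusted p = 0.00199). Its 6 arrays with Pam2CSK4, anti-CD86 or both lay between -1.56 and -1.26, below the unstimulated ones. With median centring its anti-CD40 value was 0.04, so that its rise there rests on the scaling. Rab43, also of the Golgi, passed in the test among the 6 conditions (adjusted p = 0.0247). Against unstimulated cells it passed only in the slide-blocked fit, where it was higher with anti-CD86 (0.63, adjusted p = 0.00216) and TLR2.CD86 (0.64, adjusted p = 0.00117) and lower with anti-CD40 (-0.48, adjusted p = 0.00167) and anti-CD40+Pam2CSK4 (-0.21, adjusted p = 0.0223). Its values without the block were 0.46, 0.46, -0.66 and -0.21, and its 3 other probes did not move together, with -0.16 to 0.62 for TLR2.CD86.

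Of the genes of regulated secretion, 6 of 8 were tested, and Rab3a and Rab27a changed with anti-CD40. Of all probes 16.7% passed there, and with 6 genes the count is too small to be read against it. Rab3a, best known from synaptic vesicles, was at 1.60 and 1.56 in unstimulated cells, 0.31 and 0.00 with anti-CD40 and 0.22 and 0.07 with anti-CD40+Pam2CSK4. The fold changes were -1.42 (SE 0.18, adjusted p = 0.0041) and -1.43 (adjusted p = 0.00199). In the 3 other conditions its arrays ranged from 0.96 to 1.55, so that anti-CD40 separated from them as well.

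Rab27a, which docks secretory lysosomes, was dim and was the gene most raised by anti-CD40 alone. It was at -2.18 and -2.42 in unstimulated cells, -1.35 and -0.93 with anti-CD40 and -2.55 and -2.91 with anti-CD40+Pam2CSK4. On the 6 other arrays it lay between -2.70 and -1.93. The rise was 1.16 (SE 0.31, adjusted p = 0.0395), and anti-CD40+Pam2CSK4 was lower than anti-CD40 by -1.59 (adjusted p = 0.0363). On slide 1 alone the values were 0.95 and -1.38, neither past the threshold, and the calls were lost without anti-CD40 replicate 2 (adjusted p = 0.186 and 0.171). Its second probe was not well above background on any unstimulated or anti-CD40 array. Rab37, of secretory granules, was lower with TLR2.CD86, at -1.43 and -1.90 against -0.74 and -0.90 (-0.84, adjusted p = 0.035).

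Among the genes of less certain place, Rab28 fell from 1.51 and 1.45 to 0.74 and 0.76 with TLR2.CD86 (-0.73, SE 0.10, adjusted p = 0.0107). It was at 0.92 and 0.89 with anti-CD40 (-0.57, adjusted p = 0.0106) and 0.76 and 0.74 with anti-CD40+Pam2CSK4 (-0.73, adjusted p = 0.00249). All 10 stimulated arrays lay below both unstimulated arrays. Rab23, an antagonist of Hedgehog signalling, was lower in anti-CD40 (-1.19, SE 0.29, adjusted p = 0.0321) and anti-CD40+Pam2CSK4 (-1.16, adjusted p = 0.0298). Its unstimulated arrays were at -0.25 and -1.27 and differed by more than any other pair of arrays of 1 condition for this gene, while the 10 stimulated arrays lay between -2.08 and -1.57. Without unstimulated replicate 1 its values were -0.68 and -0.65, and neither passed.

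**Figure D3:**
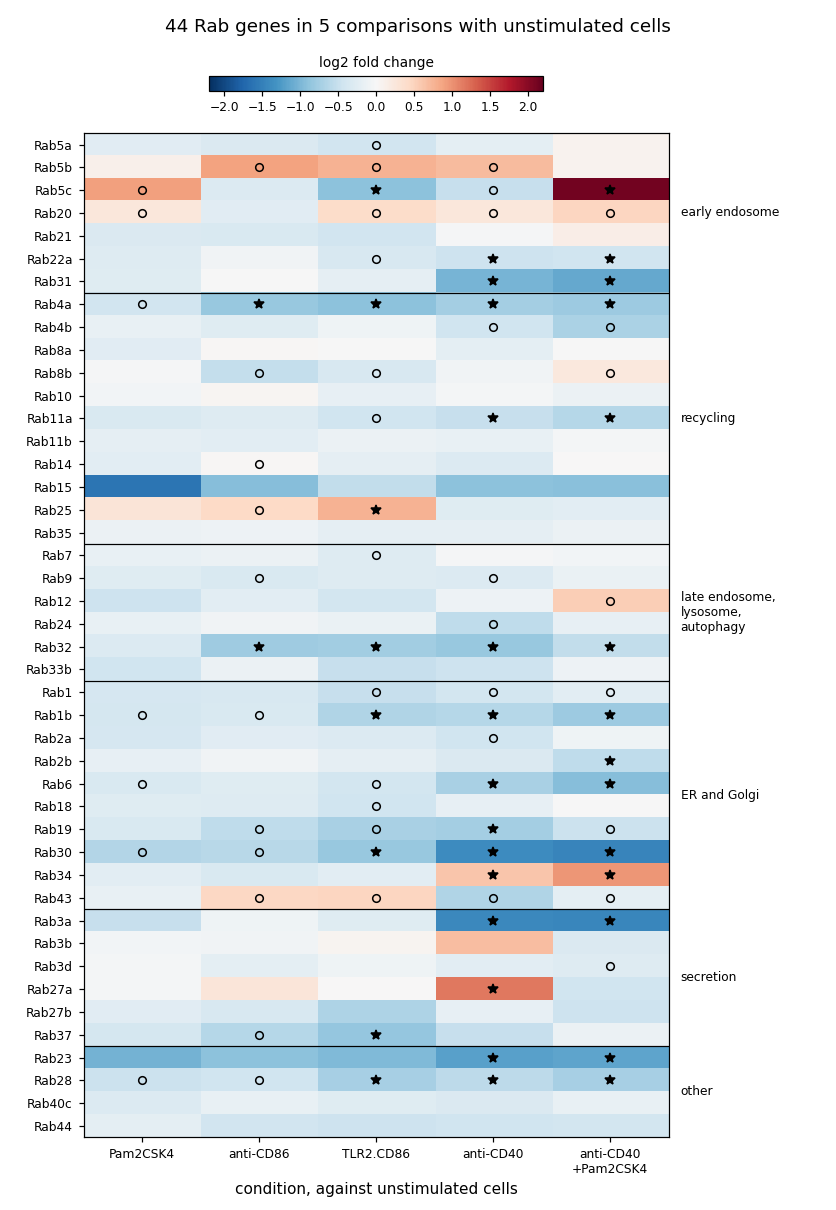
Log2 fold change against unstimulated cells (colour) of the 44 Rab genes tested, grouped by role, for 5 conditions on the horizontal axis. Stars mark an adjusted p under 0.05 and circles a gene that passed only in the slide-blocked fit; Rab5c is the darkest red square at 2.13 with anti-CD40+Pam2CSK4, and Rab30 and Rab3a are the darkest blue of the called squares in both anti-CD40 columns.

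The heat map of 44 genes shows where the conditions share calls. In all, 18 Rab genes passed in at least 1 of the 5 comparisons with unstimulated cells, and 12 passed in both anti-CD40 comparisons. These comparisons share the unstimulated arrays, so the calls are not independent. The matching shares of all probes are not given, so neither count can be read as a trait of the Rab genes. Adding anti-CD40 to Pam2CSK4 gave 7 calls between anti-CD40+Pam2CSK4 and Pam2CSK4 (9.91% of all probes), which share no array. Rab34 (1.20), Rab5c (1.23) and Rab12 (0.99) were higher and Rab30 (-0.79), Rab6 (-0.59), Rab3a (-0.92) and Rab31 (-0.84) lower, with adjusted p from 0.00158 to 0.0401.

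**Figure D4:**
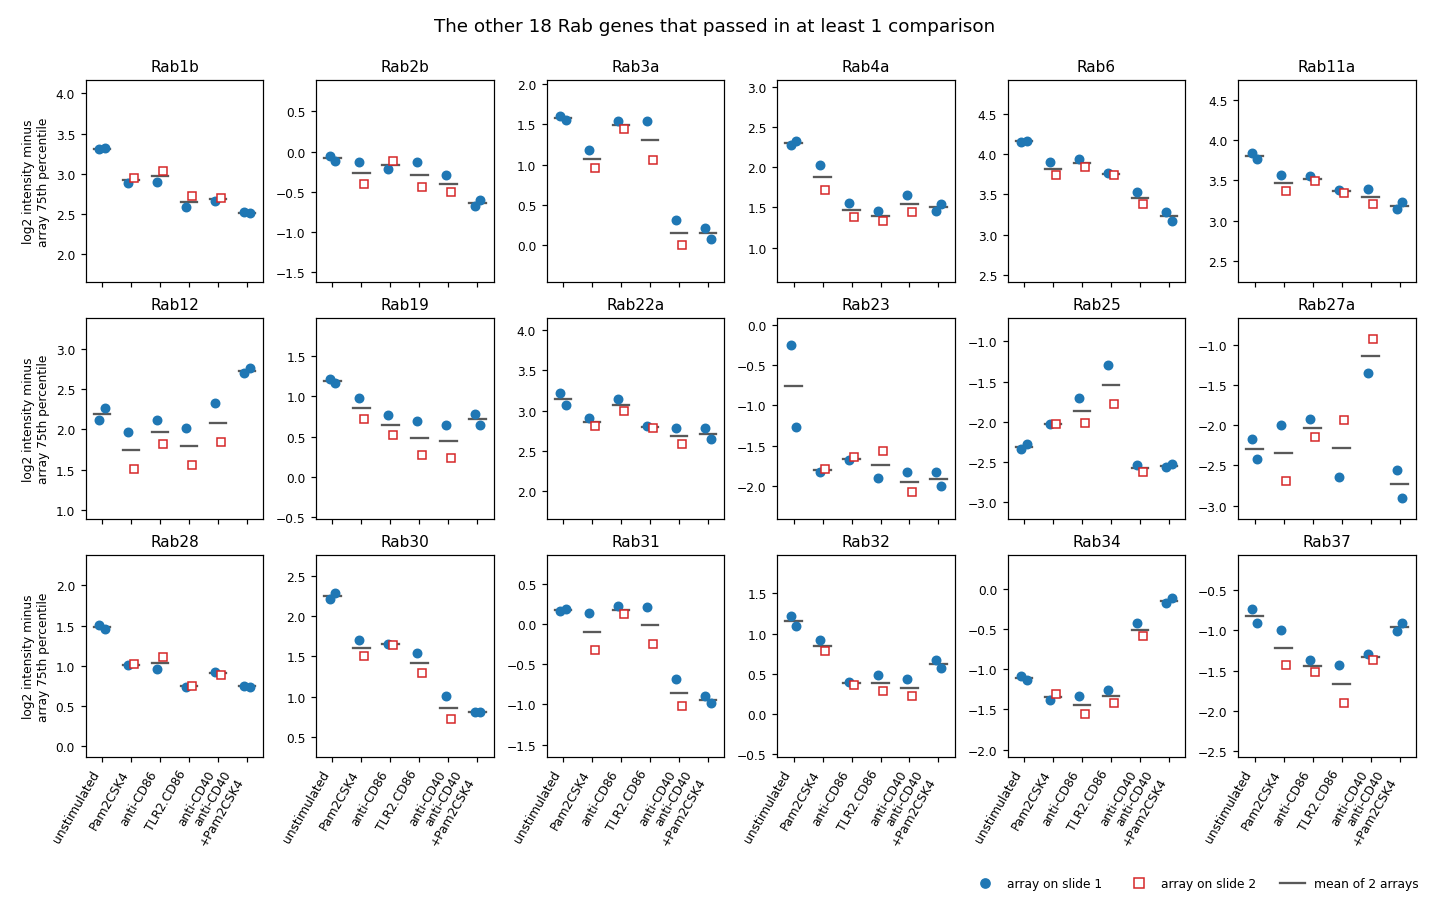
Levels (vertical axis, log2 intensity relative to the 75th percentile of each array; each panel spans 2.5 units) of the 18 Rab genes other than Rab5c that passed in at least 1 of 11 comparisons, in the 6 conditions on the horizontal axis. Points are arrays, filled on slide 1 and open on slide 2, and bars are means of 2 arrays; by their means most genes are highest in unstimulated cells, and Rab34 is highest with anti-CD40+Pam2CSK4.

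The calls differed in how far they rested on 1 array. The plot of the 18 other genes shows small gaps between the unstimulated arrays, except for Rab23. Leaving out any array compared kept the calls of Rab30 and Rab3a for anti-CD40 (adjusted p up to 0.0253 and 0.0422). It also kept those of Rab1b, Rab6, Rab28, Rab30, Rab34 and Rab3a for anti-CD40+Pam2CSK4 (up to 0.0329) and that of Rab34 against Pam2CSK4 (up to 0.0233). Apart from these and the 3 Rab5c calls of anti-CD40+Pam2CSK4 given above, every call of a brightest Rab probe was lost in at least 1 such fit. Other probes and the partner genes were not refitted in this way. The calls of Rab4a and Rab32 for anti-CD86 were lost without any of the 4 arrays compared (adjusted p from 0.134 to 0.253). The 8 calls for TLR2.CD86 were all lost without either unstimulated array or replicate 2 of TLR2.CD86, and those of Rab1b, Rab5c and Rab25 also without its replicate 1 (adjusted p up to 0.196 over the 8 genes). For anti-CD40, the calls other than Rab30, Rab3a and Rab23 were lost without either unstimulated array, and those of Rab4a, Rab11a, Rab19, Rab22a, Rab23, Rab27a and Rab31 without anti-CD40 replicate 2 (adjusted p up to 0.219). For anti-CD40+Pam2CSK4, those of Rab2b, Rab11a, Rab22a and Rab32 were lost without any of the 4 arrays, that of Rab4a without either unstimulated array or replicate 1, that of Rab31 without either unstimulated array or replicate 2, and that of Rab23 without unstimulated replicate 1 or either stimulated array (adjusted p up to 0.259).

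Some Rab genes could be described only in part. The 12 genes not tested were Rab3c, Rab6b, Rab9b, Rab13, Rab17, Rab26, Rab33a, Rab36, Rab38, Rab39, Rab39b and Rab40b, and of these Rab6b, Rab13, Rab36 and Rab39b were not well above background on any array. Rab15 exceeded the background clearly in both unstimulated samples (-3.35 and -3.42) and in none of Pam2CSK4, TLR2.CD86, anti-CD40 or anti-CD40+Pam2CSK4. Against Pam2CSK4, anti-CD40 and anti-CD40+Pam2CSK4 its unstimulated level was at least 1.18-fold, 1.19-fold and 1.18-fold higher, a bound set by the dimmest signal well above background. Against TLR2.CD86 the 1.46-fold gap is that of the measured means (-3.39 and -3.93) and is not a bound. Rab15 was bright enough to be tested only through the unstimulated arrays, and no comparison passed. No Rab gene was saturated by its brightest probe.

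The genes that load, activate, inactivate or are bound by Rab proteins were listed as partners, 127 in all, of which 121 were on the array and 99 were tested. None passed for Pam2CSK4 or anti-CD86 (11 and 32 in the slide-blocked fit, where 10.8% and 28.3% of all probes did). For TLR2.CD86 6 passed (10.6% of all probes), 2 higher and 4 lower, against 3.39% and 7.23% of all probes. In the slide-blocked fit 39 passed (34.9% of all probes). The exchange factors Als2cl (0.91, adjusted p = 0.0447) and Dennd3 (0.60, adjusted p = 0.0422) were higher. The exchange factors Dennd1b (-0.54, adjusted p = 0.0425) and Dennd1c (-0.41, adjusted p = 0.0482), the GTPase-activating protein Tbc1d22a (-0.41, adjusted p = 0.0446) and the Rab11 effector Rab11fip5 (-0.96, adjusted p = 0.0144) were lower.

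For anti-CD40 21 passed (16.7% of all probes), 19 lower and 2 higher, and for anti-CD40+Pam2CSK4 23 passed (18.2%), 15 lower and 8 higher. Of all probes 10.6% were lower and 6.15% higher for anti-CD40, and 9.65% lower and 8.52% higher for anti-CD40+Pam2CSK4. The slide-blocked fit gave 39 and 50, where 37.1% and 47.4% of all probes passed, so these counts are near the background. All 7 GTPase-activating proteins called for anti-CD40, of 31 tested, were lower, led by Rabgap1l (-1.76, adjusted p = 0.00056). Rabgap1l had the lowest value for anti-CD40+Pam2CSK4 too (adjusted p = 8.62e-05). Plekhm1, a Rab7 effector at lysosomes, was lower in both (adjusted p = 0.00151 and 0.000305), by -1.29 with anti-CD40+Pam2CSK4. Of the 27 exchange factors tested, 2 were higher and 3 lower with anti-CD40, and 6 higher and 3 lower with anti-CD40+Pam2CSK4. The counts by class are small and were not tested against the shares of all probes. Sbf2 (0.77 and 1.12) and Dennd4a (0.81 and 0.96) were higher in both, with adjusted p from 0.0063 to 0.0321, and Dennd1c was lower in both (-0.48 each, adjusted p = 0.0246 and 0.0184). Chml, a Rab escort protein, was lower with anti-CD40 (-0.58, adjusted p = 0.0187) and with anti-CD40+Pam2CSK4 (-0.56, adjusted p = 0.016). Rufy1, an effector of Rab4 and Rab14, passed in none of the 5 comparisons (-0.48 to -0.01), and in the slide-blocked fit in that of anti-CD40+Pam2CSK4 (-0.33, adjusted p = 0.0243). Eea1, which tethers early endosomes through Rab5, had 0.41 with TLR2.CD86 (adjusted p = 0.0886) and 0.43 with anti-CD40+Pam2CSK4 (adjusted p = 0.0666) and passed in both in the slide-blocked fit, as did its value with anti-CD86 (0.46, adjusted p = 0.0111).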

How the data were processed

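RNA of RB cells was labelled with Cy3 and hybridised to a custom Agilent mouse array (annotated to mm9), and the authors extracted it with Feature Extraction 10.5.1.1. The deposited values are processed signal intensities per spot, background-corrected array by array, with no scaling between arrays. The authors also deposited a log2 table of the same arrays, used as an alternative. Here log2 of the intensity minus the 75th percentile of each array was taken, control spots and outlier spots were left out, spots of a probe were averaged, and probes that exceeded background clearly in both replicates of some condition were tested with limma 3.58.1 in R 4.3.3 (1 coefficient per condition over 12 arrays, empirical Bayes, two-sided, Benjamini-Hochberg adjustment over 31599 probes, called at an adjusted p under 0.05). The script was tested on simulated data. Symbols are those of the files, and 95 of 100 Rab probes had an accession in RefSeq's table of GRCm38.p6, used for names. Always named were Rab5a, Rab5b, Rab5c, Rab7, Rab11a, Rab27a, Rab1, Rab4a, Rab8b, Rab14, Rab21, Rab22a and Rab31, and beside them the 19 genes called in any of 11 comparisons and, per comparison with unstimulated cells, up to 5 called with the slide as a block only. The members, the role groups and the partner list were chosen with earlier results of these data known. Alternatives were median and quantile normalization, normexp (offset 50), the deposited log2 table, other filters on dim probes, the slide or the replicate number as a block, slide 1 alone, the median over probes, each array left out, and, for the difference among 6 conditions, a one way test with no moderation. The number of arrays limits the precision. Python 3.11.15 with numpy 2.4.6, pandas 2.3.3 and matplotlib 3.10.9 made the tables and plots. Values of some single genes of the marker and partner lists are not reported here.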

Additional observations from a re-analysis of the deposited data

Results flagged for a closer look

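Rab5c was the Rab gene whose response to Pam2CSK4 differed with and without anti-CD40 by a test of the difference itself. The call was lost with median normalization and with no filter on dim probes. Centring each array on its median moved all values of the CD40 interaction by 0.65 on the log2 scale. The log2 effect of both signals exceeded the sum of the separate effects by 1.73 (limma, SE 0.25, adjusted p = 0.0191, 2 arrays per condition). It was 1.42 on slide 1 alone, where it did not pass, and 1.44 when slide was a blocking term (adjusted p = 0.000897).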

How the results depend on the processing

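Counts are of the 44 Rab genes with an adjusted p under 0.05 by limma. No call changed direction under any alternative. The log2 table of the authors gave the same counts in every comparison. Median normalization gave 0 for anti-CD86 (2 in the report), 0 for TLR2.CD86 (8), 3 for anti-CD40 (14), 1 for anti-CD40+Pam2CSK4 (14), 0 for TLR2.CD86 against Pam2CSK4 (1), 0 and 1 for anti-CD40+Pam2CSK4 against Pam2CSK4 (7) and anti-CD40 (2), 0 for the CD40 interaction (1) and 2 for the 6 conditions (13). With no filter on dim probes the counts were 0, 0, 4, 0, 3, 1, 0 and 5 for anti-CD86, TLR2.CD86, anti-CD40, TLR2.CD86 against Pam2CSK4, anti-CD40+Pam2CSK4 against Pam2CSK4 and against anti-CD40, the CD40 interaction and the 6 conditions. Quantile normalization gave 1 for Pam2CSK4 (0), 5 for anti-CD86, 1 for anti-CD40+Pam2CSK4 against anti-CD40 and 1 for the CD86 interaction (0). Normexp gave 4 for anti-CD86, 15 for TLR2.CD86 and 1 for anti-CD40+Pam2CSK4 against anti-CD40. Probes well above background on all arrays gave 4 for anti-CD86 and 14 for TLR2.CD86, and the median over probes gave 1 for anti-CD86.

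With the slide as a block the counts were 7, 13, 20, 23 and 22 against unstimulated cells, 10 and 4 for TLR2.CD86 against Pam2CSK4 and anti-CD86, 19 and 6 for anti-CD40+Pam2CSK4 against Pam2CSK4 and anti-CD40, 1 and 4 for the CD86 and CD40 interactions and 30 for the 6 conditions. Slide 1 alone gave 0 for anti-CD86, 22 for anti-CD40+Pam2CSK4, 0 for TLR2.CD86 against Pam2CSK4, 13 and 1 for anti-CD40+Pam2CSK4 against Pam2CSK4 and anti-CD40, 0 for the CD40 interaction and 21 for the 6 conditions. The replicate block gave 1 for Pam2CSK4, 8 for anti-CD86, 18 for TLR2.CD86, 2 for the CD40 interaction and 20 for the 6 conditions. Deviations of same-numbered arrays correlated at 0.54 to 0.67 between groups that span both slides and at -0.11 to 0.07 otherwise, so the numbers were not taken to pair the samples.

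Leaving out 1 array gave 0 to 0 for Pam2CSK4, 0 to 3 for anti-CD86, 0 to 13 for TLR2.CD86, 2 to 19 for anti-CD40 and 7 to 15 for anti-CD40+Pam2CSK4. It gave 0 to 1 and 0 to 0 for TLR2.CD86 against Pam2CSK4 and anti-CD86, 2 to 7 and 1 to 3 for anti-CD40+Pam2CSK4 against Pam2CSK4 and anti-CD40, 0 to 0 and 0 to 1 for the CD86 and CD40 interactions and 5 to 15 for the 6 conditions. A lone array was then assumed to vary like the other groups. A one way test with no moderation gave 14 for the 6 conditions.

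Of the 49 calls of a gene in a comparison, 49 held with the slide or the replicate block, 46 with normexp, 43 with quantile normalization, 42 with the median over probes, 40 on slide 1 alone, 15 with no filter on dim probes and 5 with median normalization. Those 5 were Rab5c for anti-CD40+Pam2CSK4 against unstimulated and anti-CD40 cells, and Rab30, Rab3a and Rab23 for anti-CD40. The cause of the lost calls was not tested. Probes near background limit the dim genes Rab5b, Rab15, Rab25 and Rab27a.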
